A study of Mus musculus with 10 samples.

Results

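The genes described here are 8 markers of mesenchymal and stromal cells: Vim, Acta2, Tcf21, Cited1, Cdh11, Ncam1, Thy1 and Dlk1. They were taken by gene identifier or symbol from the authors' deposited comparison tables, which name 634 genes over 2 Affymetrix array types. The 8 genes have 12 probe sets there, 7 on the 430A array and 5 on the U74Av2 array. Ncam1, Thy1 and Dlk1 are named on both types, Vim, Tcf21, Cited1 and Cdh11 on 430A alone, and Acta2 on U74Av2 alone. Ureteric buds of Swiss Webster mouse embryos at E11.5 were kept in Matrigel for 16 h, either in 100 ng/mL GDNF, a ligand of the Ret receptor, or in medium that lacked GDNF. The groups are 430A plus GDNF (3 arrays), 430A minus GDNF (2 arrays), U74Av2 plus GDNF (3 arrays) and U74Av2 minus GDNF (2 arrays). Each array carries a pool of RNA from about 5 to 6 batches, each of 30 to 40 buds, and so is not a single animal. The comparison asks how GDNF alters these markers in the isolated bud.

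The authors' tables list only probe sets that passed their filter on the same arrays, a fold change whose lower 90% bound exceeded 1.2 and a difference of means over 100. Every member probe set was therefore chosen for a difference between plus and minus GDNF, and its fold change and p-value are not independent evidence of one. Other probe sets of the 8 genes on these arrays are unnamed in the sources used here and were not analysed. Acta2 and Tcf21 lay just inside the filter's fold limit, with a lower bound of 1.2 in the authors' deposited tables, and Cdh11 had 1.21 in the authors' deposited table. Nearest to the limit of 100 on the difference of means were Thy1 on 430A, at 110.72 in size, and Acta2, at 120.75, in the authors' deposited tables.

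The ureteric bud is the epithelium that branches to form the collecting ducts, and the mesenchyme around it holds cap cells, which make the nephrons, and stroma, which makes interstitial and perivascular cells. Vim encodes vimentin, the intermediate filament of mesenchymal cells, and Acta2 the smooth muscle actin of contractile stroma. Tcf21 is a transcription factor of kidney mesenchyme, Cited1 a transcriptional co-regulator that marks cap cells, and Cdh11 a cadherin of mesenchymal cells. Ncam1 is an adhesion molecule of the mesenchyme, Thy1 a surface glycoprotein of fibroblasts and neurons, and Dlk1 a transmembrane relative of the Notch ligands that many embryonic stromal cells express. In pooled RNA of this kind, fewer cells of a type and less RNA per cell cannot be told apart.

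RefSeq promoter windows (GRCm38.p6) were found for 5 of the 8 genes, Vim, Acta2, Tcf21, Cited1 and Dlk1. The 250 bases before the start are shown for the 4 genes with a single window, so that the starts of genes described below can be compared. Cited1 has 3 windows and is described without its letters. Capitals mark every match to TATAAA or CGGAAG on both strands, to CANNTG, the E-box bound by proteins of the class of Tcf21, or to the strict CArG box of serum response factor, whose inner bases are all A or T.
Vim (chr2:13574061-13574310, + strand): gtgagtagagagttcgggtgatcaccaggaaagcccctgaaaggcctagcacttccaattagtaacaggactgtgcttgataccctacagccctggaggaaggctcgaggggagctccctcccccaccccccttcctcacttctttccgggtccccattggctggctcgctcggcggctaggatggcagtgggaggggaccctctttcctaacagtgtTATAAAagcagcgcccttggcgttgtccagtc
Acta2 (chr19:34255374-34255623, - strand): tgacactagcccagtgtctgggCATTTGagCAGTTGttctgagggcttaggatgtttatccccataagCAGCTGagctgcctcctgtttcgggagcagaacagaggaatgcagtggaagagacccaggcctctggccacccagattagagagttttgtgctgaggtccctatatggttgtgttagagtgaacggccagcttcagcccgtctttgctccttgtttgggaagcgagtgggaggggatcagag
Tcf21 (chr10:22820144-22820393, - strand): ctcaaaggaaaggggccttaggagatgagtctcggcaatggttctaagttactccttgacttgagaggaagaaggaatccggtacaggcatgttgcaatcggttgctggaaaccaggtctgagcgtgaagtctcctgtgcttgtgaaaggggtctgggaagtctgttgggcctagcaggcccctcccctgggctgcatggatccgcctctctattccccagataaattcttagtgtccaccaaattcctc
Dlk1 (chr12:109452573-109452822, + strand): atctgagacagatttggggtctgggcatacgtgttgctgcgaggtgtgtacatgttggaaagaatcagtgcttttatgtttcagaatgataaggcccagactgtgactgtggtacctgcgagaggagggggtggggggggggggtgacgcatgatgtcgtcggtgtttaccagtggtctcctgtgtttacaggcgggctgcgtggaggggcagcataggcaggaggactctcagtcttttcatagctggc

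No motif was common to these 4 windows. The Vim window has a TATAAA that begins 32 bases before the start, a motif found in 12.4% of all 32851 windows of this length. Acta2 has 3 E-boxes, beginning 228, 220 and 182 bases before the start, whereas the windows of Vim, Tcf21 and Dlk1 have none. An E-box stands in 66.2% of all windows. Tcf21 and Dlk1 have no match to any of the motifs searched. CGGAAG, a core form of the sites of ETS factors, is in 13.6% of all windows, in none of these 4 and in 1 window of Cited1, where it begins 123 bases before the start. The windows of Cited1 also hold E-boxes that begin 142 and 164 bases before their starts and TATAAA at 13 and 115 bases. The strict CArG box, in 1.47% of all windows, was found only in a window of Cited1, where it begins 45 bases before the start. The known CArG elements of Acta2 depart from that strict form, and a missing match says only that these letters are not in the window.

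All 12 member probe sets were lower with GDNF, by 24.8% to 47.5%, and the median log2 change was -0.63 on 430A and -0.73 on U74Av2. Over all probe sets tested the median was -0.07 on 430A and -0.04 on U74Av2, with 63.3% and 56.3% lower. None of the 12 passed limma's adjusted p of 0.05, and 11 had an unadjusted p under 0.05 (7 of 7 on 430A and 4 of 5 on U74Av2), as did 5.05% and 1.02% of all probe sets on these types in the lower direction. So did 151 of the 151 probe sets the authors listed as lower on 430A, and 34 of the 39 on U74Av2. The count of 11 therefore reflects the selection and says nothing more about the markers. Of all 19521 probe sets on 430A, 0 passed (0.0%), with 2588 at an unadjusted p under 0.05, and of all 10588 on U74Av2, 1 passed (0.00944%), with 931 at an unadjusted p under 0.05. The plus and minus arrays did not overlap for 7 of 7 probe sets on 430A and 4 of 5 on U74Av2. Over all probe sets tested, 14.9% on 430A and 4.92% on U74Av2 lay wholly lower with GDNF. Nothing about the markers is read from that contrast, since 100.0% and 94.9% of the probe sets the authors listed as lower on these types were also wholly lower. The number of arrays limits the precision, and p-values measure the spread between these pools.

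**Figure D1:**
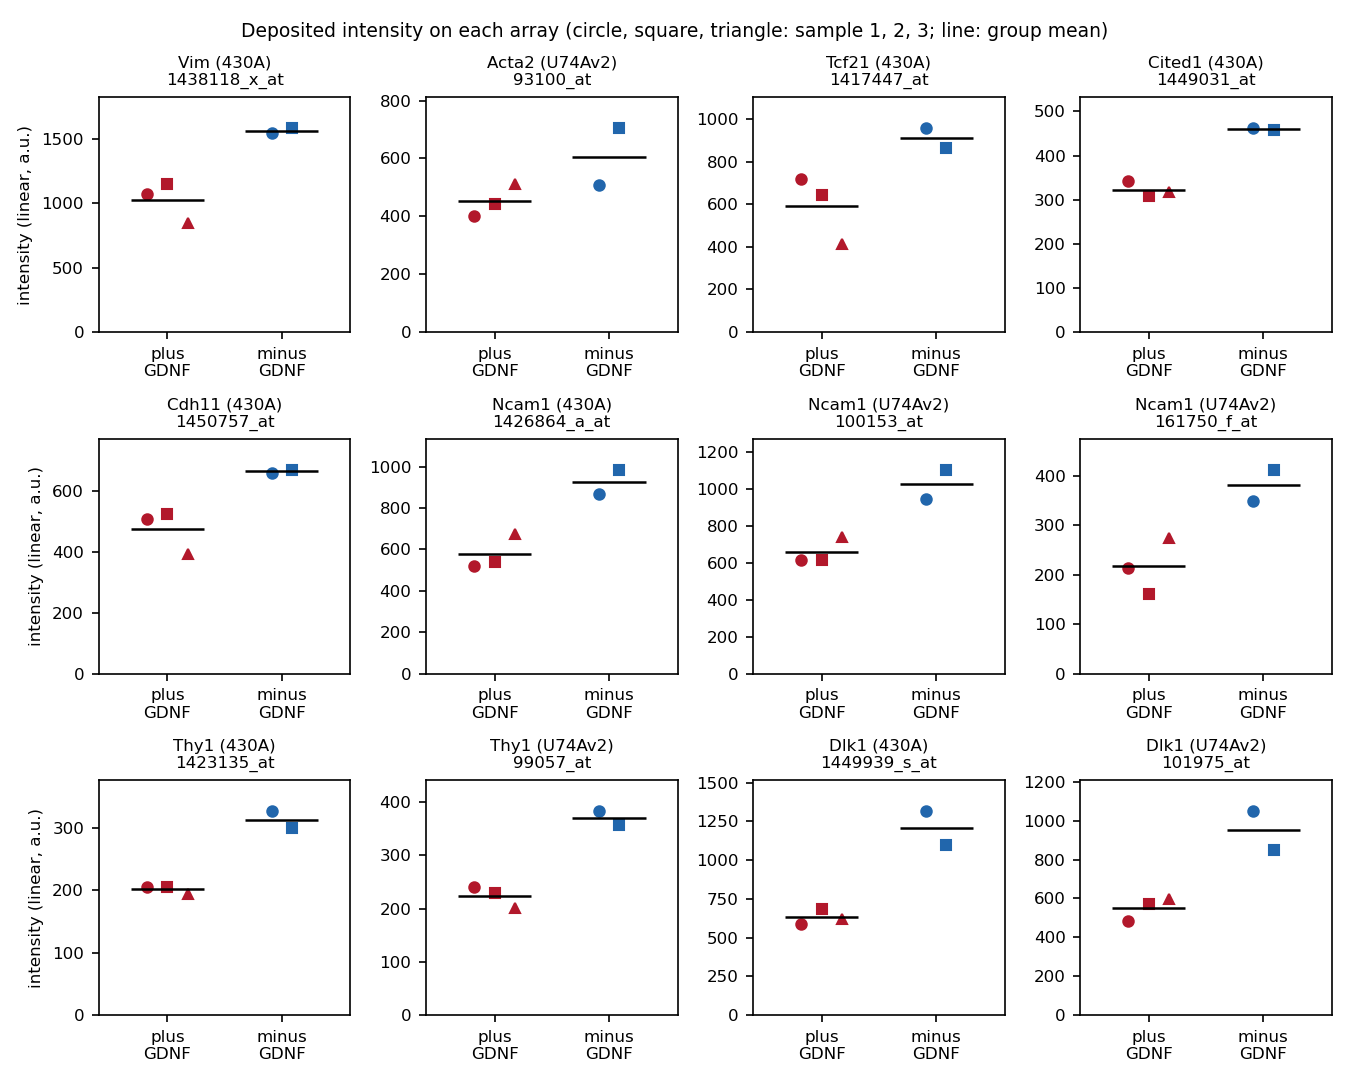
Deposited intensity (linear, arbitrary units, axis from 0) of the 12 member probe sets on each array, with plus GDNF in red and minus GDNF in blue. Circles, squares and triangles are samples 1, 2 and 3, and lines are group means. Only for Acta2 does a plus array (513) lie above a minus array (507).

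The first markers are those of the cytoskeleton. Vimentin had an intensity of 1071, 1146 and 844 on the 430A plus GDNF arrays, against 1539.5 and 1582 on the minus GDNF arrays. The minus arrays were close together and above every plus array, and plus array 3 was the lowest of all. The plus arrays averaged 1021 ± 157 (SD, n = 3) and the minus arrays 1560.5 ± 29.7 (SD, n = 2). Vim was thus 35.1% lower with GDNF (log2 -0.62 ± 0.15 SE, limma adjusted p = 0.18).

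Acta2 had 399, 443 and 513 on the U74Av2 plus GDNF arrays, against 507 and 705 on the minus GDNF arrays. Plus array 3 lay just above minus array 1, so the groups overlapped. The log2 change was -0.41 ± 0.20 SE with a limma adjusted p of 0.68, and without minus array 1 it was -0.65 (adjusted p = 0.23) and without minus array 2 it was -0.17 (adjusted p = 0.96). The authors' deposited table gives Acta2 a fold of -1.65 (bounds -1.2 and -2.29), where the minus sign marks a lower level. In the deposited intensities the plus arrays averaged 452 ± 57.1 (SD, n = 3) and the minus arrays 606 ± 140.1 (SD, n = 2), a ratio of minus to plus of 1.34. The log2 of the fold in the authors' deposited table minus that of the intensities was -0.298, a gap whose size ranked 5 among the 312 listed U74Av2 probe sets, whose median gap was 0.024. The other U74Av2 member probe sets had gaps of the same sign, from -0.129 (Dlk1, rank 15) to -0.082 (the dimmer Ncam1 probe set, rank 37). On 430A no member's gap exceeded 0.0079 in size. How the folds came to differ on U74Av2 is not stated in the labels or headers.

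The transcriptional regulators differed in their spread. Tcf21 stood at 717, 645 and 413 on the 430A plus GDNF arrays, against 959 and 866 on the minus GDNF arrays. All plus arrays lay below the minus arrays, and plus array 3 was far below the others. The change was -0.66 ± 0.24 on the log2 scale (limma adjusted p = 0.34), and without plus array 3 it was -0.42 (adjusted p = 0.35). Cited1, by contrast, had 342, 309 and 317 with GDNF, against 463 and 459 without, on 430A. Its arrays were tight within each group, at 323 ± 17.1 (SD, n = 3) in the plus arrays and 461 ± 2.86 (SD, n = 2) in the minus arrays. It was 30.0% lower with GDNF (log2 -0.51 ± 0.10 SE, limma adjusted p = 0.12).

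Cdh11 was the marker with the smallest change on 430A. It had 510.1, 526 and 393 with GDNF, against 659 and 672 without, and the groups did not overlap. The change was -0.49 ± 0.15 on the log2 scale (limma adjusted p = 0.26). As for Vim and Tcf21, plus array 3 was the lowest, and without it the log2 change of Cdh11 was -0.36.

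Ncam1 was measured by 3 named probe sets. On 430A its intensity was 519, 541 and 672 with GDNF, against 869 and 986 without, a change of -0.69 ± 0.15 SE on the log2 scale (limma adjusted p = 0.15). On U74Av2 the brighter probe set had 616, 614 and 738 with GDNF, against 946 and 1106 without (log2 -0.65 ± 0.16 SE, limma adjusted p = 0.32). The dimmer one had 214, 161 and 274 with GDNF, against 348 and 413 without (log2 -0.84 ± 0.25 SE, limma adjusted p = 0.37). In all 3 probe sets plus array 3 was the highest plus array and minus array 2 the higher minus array, and the groups did not overlap.

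Thy1 had 205, 206 and 194 on the 430A plus GDNF arrays, against 327 and 299.6 on the minus GDNF arrays. On U74Av2 it had 240.0, 229 and 201 with GDNF, against 383 and 356 without. The arrays with GDNF were tight and well below the others on both types. The log2 change was -0.63 ± 0.10 SE on 430A (limma adjusted p = 0.084) and -0.73 ± 0.15 SE on U74Av2 (limma adjusted p = 0.22).

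Dlk1 had the largest change of the 7 genes named on 430A. Its intensity there was 588, 683 and 622 with GDNF, against 1316 and 1094 without. The plus arrays averaged 631 ± 48.5 (SD, n = 3) and the minus arrays 1205 ± 157 (SD, n = 2), 47.5% lower with GDNF (log2 -0.93 ± 0.13 SE, limma adjusted p = 0.069). On U74Av2 the values were 486, 569 and 596 with GDNF, against 1049.8 and 851 without (log2 -0.79 ± 0.17 SE, limma adjusted p = 0.26). Every plus array lay below every minus array on both types. At an adjusted p under 0.1, Dlk1 and Thy1 were among the 22 lower 430A probe sets that passed, 0.113% of those tested.

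**Figure D2:**
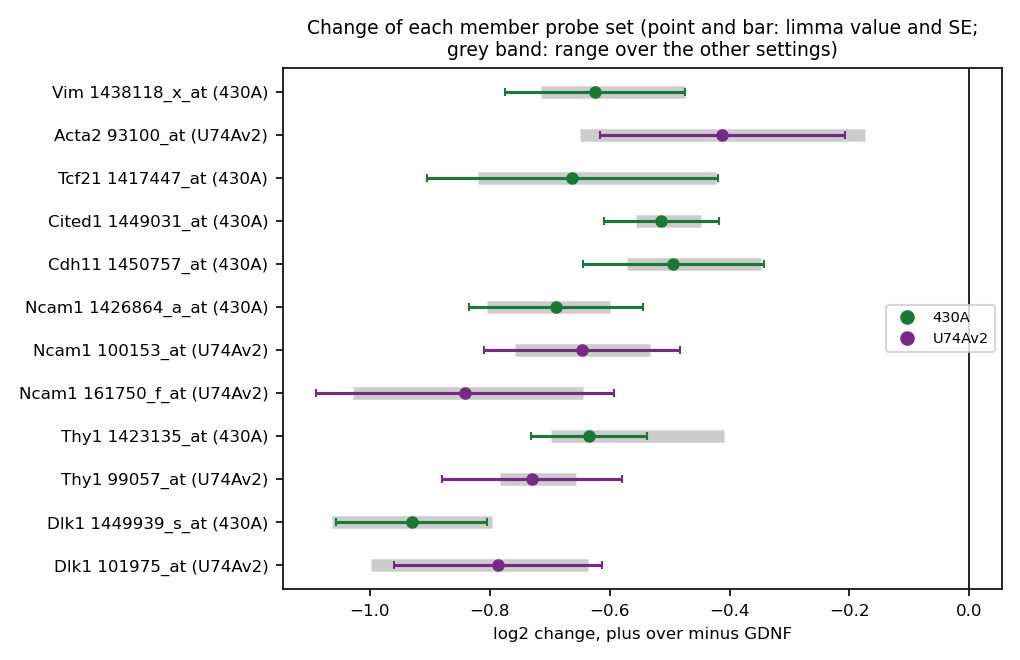
Log2 change, plus over minus GDNF, of each member probe set (points) with limma's SE (bars), in green for 430A and purple for U74Av2. Grey bands are the range over the other processing settings, and every band lies below 0, closest to it for Acta2 (highest value -0.17).

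Ncam1, Thy1 and Dlk1 could be followed over both array types. The mean of the log2 changes was -0.67 for Ncam1, -0.68 for Thy1 and -0.86 for Dlk1. An exact permutation test, with labels permuted within each type (100 arrangements, two-sided), gave p = 0.01 for each of these 3 genes, the smallest p this design allows. The selection largely fixed it in advance, since 100.0% (430A) and 94.9% (U74Av2) of the probe sets listed as lower were wholly lower. It is therefore no further evidence of a change. The 3 p-values are not adjusted, concern genes selected on the same arrays, and hold only if the 2 types are independent pools. The design text describes them so, but this was not tested. If same-numbered arrays share RNA, the test with their labels moved together, given below, applies instead. The log2 change on 430A minus that on U74Av2 was -0.044 for Ncam1 (exact permutation p = 0.88), 0.10 for Thy1 (p = 0.75) and -0.14 for Dlk1 (p = 0.78), so no difference between the types was detected with 5 arrays each.

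The order of the arrays within a group also recurred. Minus array 1 was above minus array 2 for Thy1 and Dlk1 on both types, and below it for Ncam1 on both. The same order of the minus arrays on both types was seen in 3 of these 3 genes and in 72.8% of the 184 genes named on both. The plus array with the lowest value was the same on both types for 2 of the 3, Thy1 (array 3) and Dlk1 (array 1), and for 52.7% of the 184. Whether same-numbered arrays of the types share RNA was not tested. With the labels of same-numbered arrays moved together, only 10 arrangements exist and the exact permutation p was 0.1 for each of the 3 genes, the smallest that test can give.

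Plus array 3 split the markers on 430A. Relative to the mean of the minus arrays it stood at -1.14 on the log2 scale for Tcf21, -0.89 for Vim and -0.76 for Cdh11, the lowest of the 3 plus arrays in each case. Thy1 was also lowest there, at -0.69, against -0.61 on each of the other plus arrays. For Ncam1 it stood at -0.46, the highest of the plus arrays. Over all 19521 probe sets tested on 430A, plus array 3 was the lowest plus array in 36.0% and the highest in 32.2%. Over all 10588 on U74Av2 it was the lowest in 22.2% and the highest in 55.9%. Minus array 1 lay above minus array 2 in 36.5% of all probe sets on 430A and in 35.0% on U74Av2, so the order of the minus arrays seen for Ncam1 was the common one. Plus array 3 and minus array 2 also had the highest ratios of 3' to 5' Gapdh signal in their groups, a sign of RNA quality. That ratio on 430A was 1.19, 1.12 and 1.52 with GDNF, against 1.09 and 1.74 without. On U74Av2 it was 1.22, 1.06 and 1.46 with GDNF, against 1.10 and 1.603 without. Within each group the arrays thus had the same order of this ratio on both types, where a sharing of RNA between same-numbered arrays was not tested. Ncam1 was the highest of its group in both of these arrays on each type. So was Acta2 on U74Av2, where plus array 3 was the one that overlapped the minus arrays. With both arrays left out the log2 change of Ncam1 was -0.71 on 430A, and -0.62 and -0.91 for its U74Av2 probe sets. Vim then had -0.47, Tcf21 -0.50, Cited1 -0.51, Cdh11 -0.35, Thy1 -0.67 and Dlk1 -1.05 on 430A. On U74Av2 Acta2 then had -0.27, Thy1 -0.71 and Dlk1 -0.998.

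**Figure D3:**
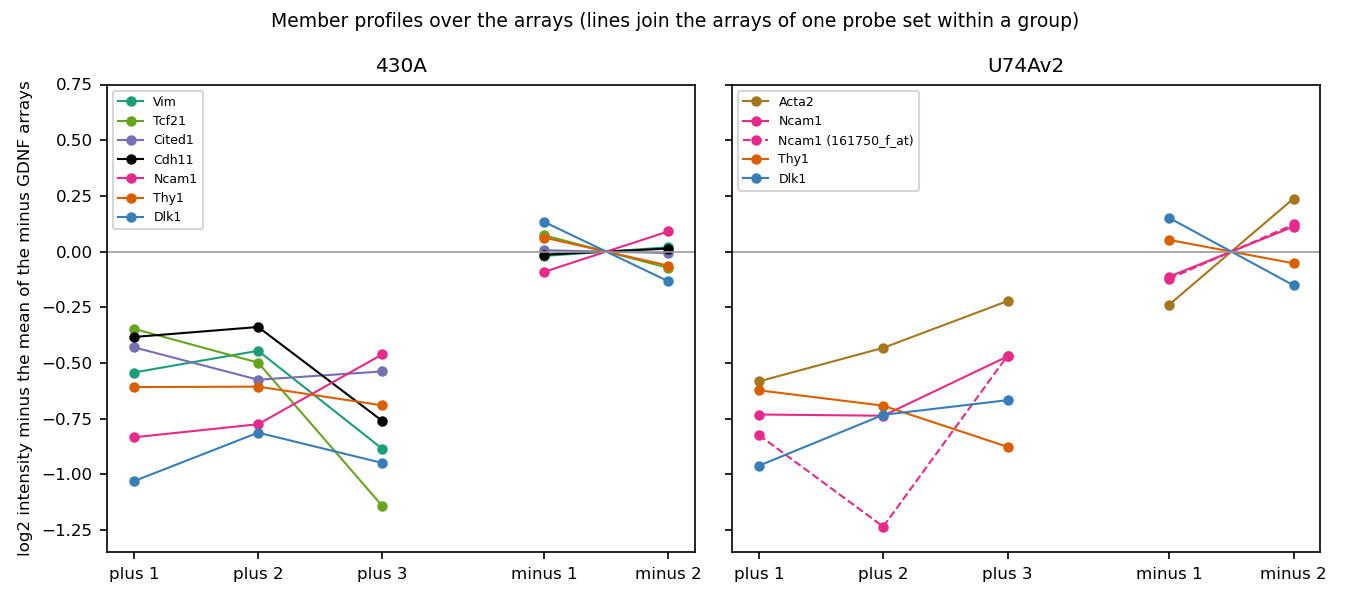
Log2 intensity of each member probe set on each array, relative to the mean of the minus GDNF arrays of its type (430A left, U74Av2 right). Lines join the arrays of one probe set within a group and imply no order. On 430A plus array 3, Tcf21 (-1.14), Vim (-0.89), Cdh11 (-0.76) and, by less, Thy1 (-0.69) are at their lowest. Ncam1 (-0.46) is there at its highest among the plus arrays.

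The profiles of the markers over the 5 arrays of 430A were compared as the root mean square difference of log2 values, each probe set centred on its own mean. Vim and Cdh11 were the closest pair, at 0.066, and Cited1 and Thy1 came next, at 0.085. Tcf21 and Ncam1 were the farthest apart, at 0.408. On U74Av2 Acta2 was closest to Ncam1, at 0.148 for its brighter probe set.

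Among the 536 other genes named on 430A, the profile nearest to Vim was that of S100a10, the partner of annexin A2, at 0.035, followed by Cmtm3 (0.048) and Foxc2, a forkhead transcription factor of mesenchyme (0.059). The nearest to Tcf21 was the selenoprotein Selenow (0.130), followed by Foxc2 (0.133) and Mgp, the matrix Gla protein (0.134). For Cdh11 they were Bambi, a decoy receptor of the TGF-beta family (0.052), S100a10 (0.053) and Mgp (0.061). Pxn, the focal adhesion protein paxillin, was the nearest to Thy1 (0.039), Mettl7a1 to Ncam1 (0.041), Serpina3g to Cited1 (0.038) and the Wnt ligand Wnt4 to Dlk1 (0.089). On U74Av2, out of 271 genes, the nearest were Plcd1, a phospholipase C, for Acta2 (0.102), Sparc for Thy1 (0.096) and C1qtnf12 for Dlk1 (0.112). Over all 10 arrays and 181 genes, Sparc, a matrix protein of stroma, was the nearest to Thy1 (0.088), Parm1 to Ncam1 (0.087) and C1qtnf12 to Dlk1 (0.125). These genes were searched among those the authors had selected for change, so a like profile is a description.

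Other stromal genes were read from a list of 30 stromal markers, which holds 5 of the 8 genes described here. Here and in the lists below, a gene is named only if it passed the authors' filter on these same arrays. The named genes were thus also selected for change and are no independent support, and unnamed genes were not analysed. Of all listed probe sets, 151 of 693 were lower on 430A and 39 of 312 on U74Av2. On 430A 7 of the 30 were named, 7 were lower and 0 passed limma's test in either direction, with a median log2 change of -0.66. Besides Vim, Tcf21, Thy1 and Dlk1 they were Igfbp7, which binds insulin-like growth factors (log2 -1.01 ± 0.22 SE), Sparc (-0.69 ± 0.12) and periostin, Postn (-0.60 ± 0.12). The summed intensity of these 3 other genes was 4515 to 5210.0 with GDNF, against 8429 to 8704.5 without. On U74Av2 4 of the 30 were named and 4 were lower, with a median of -0.70, Sparc among them at -0.68 ± 0.13. Of the 20 cap mesenchyme markers, Ncam1, Cited1 and Cdh11 were the 3 named on 430A and Ncam1 the 1 named on U74Av2. Foxd1 and Six2, which define stroma and cap cells, are not named in the tables and were not analysed.

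Genes of the families to which the markers belong did not all go the same way. Cadm1, an adhesion molecule of the same immunoglobulin superfamily as Ncam1 and Thy1, had 1256, 1092 and 1128 on the 430A plus GDNF arrays, against 539.7 and 638 on the minus GDNF arrays. It was thus higher with GDNF while Ncam1 and Thy1 were lower (log2 0.98 ± 0.12 SE, limma adjusted p = 0.060), and on U74Av2 its log2 change was 1.20 ± 0.16. Mest, imprinted like Dlk1 and expressed from the paternal allele, stood at log2 1.13 ± 0.29 on 430A and 1.24 ± 0.19 on U74Av2. Dlk2, the relative of Dlk1, was lower on 430A (-0.42 ± 0.10), and so was Cited2, the relative of Cited1 (-0.47 ± 0.12). Tpm1, a tropomyosin of contractile cells like Acta2, had -0.59 ± 0.12, and Foxc2 had -0.59 ± 0.16. Of the intermediate filament list on 430A, Lmnb1, a nuclear lamin, was higher (1.23 ± 0.23), as was Krt23 (0.88 ± 0.20). Vim, Krt7 (-0.65 ± 0.16) and Krt8 (-0.52 ± 0.14) were lower. Cdh16, the other cadherin named there, was lower like Cdh11 (-0.92 ± 0.24). None of these genes passed the test.

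Genes of the bud epithelium were read beside the markers. Of 22 bud epithelium genes, 9 were named on 430A, 5 higher and 4 lower with GDNF, and 0 passed limma's test. Their median change was 0.62 on the log2 scale. The higher genes were Ret, the GDNF receptor (log2 1.49 ± 0.30 SE), the Wnt ligand Wnt11 (1.04 ± 0.23), Calb1, the calbindin of the bud (0.72 ± 0.14), and the transcription factors Lhx1 (0.64 ± 0.11) and Sox9 (0.62 ± 0.13). Calb1 had an intensity of 5472 to 6292 with GDNF, against 3226 to 4096 without, and Ret 344 to 689.7 with GDNF, against 163 to 205 without. The kidney cadherin Cdh16 (log2 -0.92 ± 0.24 SE), nephronectin Npnt (-0.77 ± 0.19) and the keratins Krt7 (-0.65 ± 0.16) and Krt8 (-0.52 ± 0.14) were lower with GDNF, as the mesenchymal markers were. The summed intensity of the 9 genes on 430A was 17751 to 18184 with GDNF, against 18869 to 19181 without. On U74Av2 3 of the 22, Ret, Wnt11 and Calb1, were named and 3 were higher, with a summed intensity of 4339 to 5568 with GDNF, against 1711 to 2223 without. Wnt11 alone passed there (limma adjusted p = 0.011). The sum on 430A adds genes selected as higher and as lower, and that on U74Av2 only genes selected as higher. Neither sum therefore measures how much epithelium was present. No gene of the endothelium (13 genes), blood and macrophage (19) or neural and Schwann (12) lists was named on either type. Their levels were therefore not analysed, and nothing is said of whether such cells were present. The part of a changed mixture of cells in the lower marker levels was not tested. Postn, Igfbp7, Sox9, Krt7 and Krt8 were chosen for naming with their values known.

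**Figure D4:**
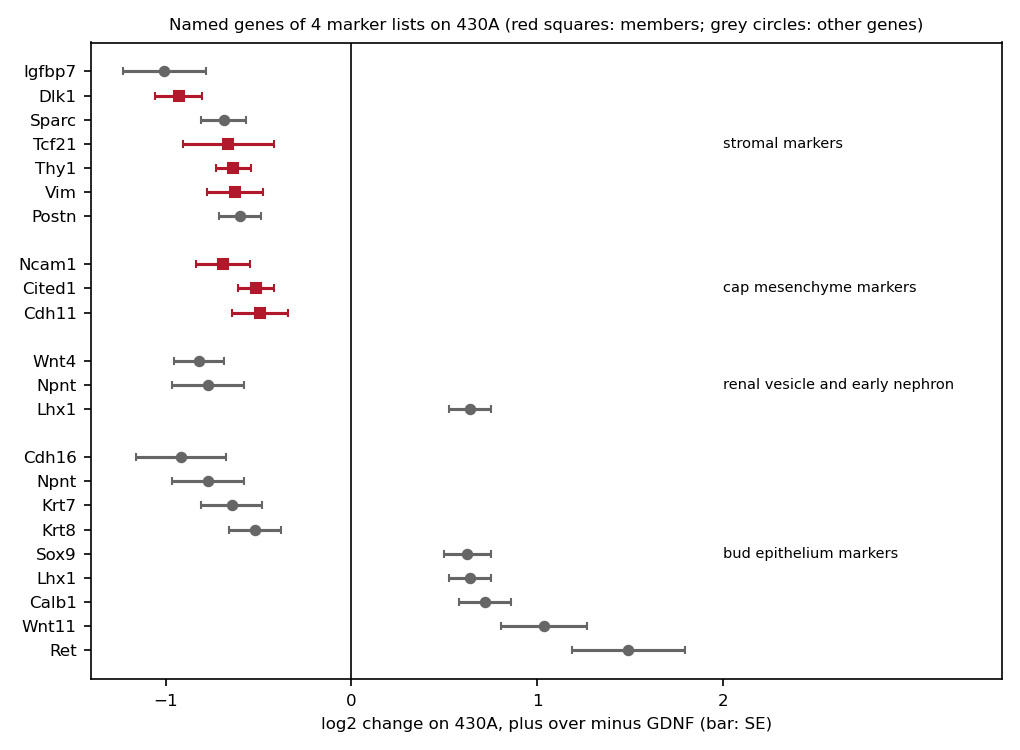
Log2 change on 430A, plus over minus GDNF, with limma's SE, of the named genes of 4 marker lists, with the markers described here as red squares and other genes as grey circles. All 7 stromal and all 3 cap mesenchyme genes lie below 0, and the 9 bud epithelium genes lie on both sides of it, 5 above and 4 below.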

How the data were processed

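The 8 genes and the gene lists were chosen with earlier results of these data known. Per the series text, the authors compared groups in dChip 1.3. The deposited intensity values are linear, with 1 for each probe set on each array, and how they were normalized is not given in the sources used here. In turn, the authors' tables give a signed fold as a score per listed probe set. Names come from those tables, brought to current symbols through Entrez identifiers and the RefSeq table of GRCm38.p6 (292 of 312 listed probe sets on U74Av2, 661 of 693 on 430A).

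Each table's 20th percentile (65.0 on U74Av2, 143 on 430A) served as a floor for lower intensities, and log2 was taken. Control probe sets (66 and 64) and those never above the floor (1834 and 3105) were removed. No member value lay at the floor. Array medians ran from 211 to 248 on U74Av2 and from 281 to 321 on 430A. The 2 types had separate fits, made with limma 3.58.1 in R 4.3.3 (lmFit, eBayes, two-sided, Benjamini-Hochberg over all probe sets), after tests on simulated data. The text names all probe sets of the 8 genes, up to 3 genes of each list with the smallest p on a type, and the 3 nearest profiles, some given here by their first.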

Additional observations from a re-analysis of the deposited data

How the results depend on the processing

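The other settings gave 167 values for the 12 probe sets. In 58 of them (the threshold, the trended variance, the filter and nearly all values under other floors) the log2 change is the reported one by construction, and only the p could move. In the other 109 (quantile normalization, median centring, the sample number as a block, arrays left out, and Thy1 at the higher floor) its size could move, and all 109 were lower with GDNF. For the 11 probe sets whose groups did not overlap, leaving out arrays cannot change the sign, so that direction was fixed in advance. The block gave the same log2 changes as leaving out plus array 3, so those values are repeats. 3 of the 167 passed: Dlk1 on 430A over the probe sets above the median level (adjusted p = 0.033), and Dlk1 and Thy1 on 430A at an adjusted p under 0.1. The count of passing 430A members was thus 1 and 2 there, and 0 otherwise. When the floor was the 40th percentile, the plus arrays of Thy1 on 430A lay at it, so its log2 change of -0.41 is a bound, and over the probe sets above the median level Thy1 was not tested. Over all 430A probe sets, calls numbered 109 with medians centred, 30 with the floor at the 10th percentile, 149 above the median level, 48 with the trended variance and 198 at 0.1. On U74Av2 they numbered 2, 0 (40th percentile), 4, 3 and 5, and 0 without plus sample 3 and minus sample 2 together, a choice made after seeing the data. Leaving out 1 array gave 0 to 1 calls on U74Av2, where the 1 call was kept in number only without plus sample 3, and 0 on 430A. Without a minus array, the lone one is assumed to vary like the plus arrays. The permutation with same-numbered arrays moved together, also added after seeing the data, left p = 0.1 for Ncam1 (-0.67), Thy1 (-0.68) and Dlk1 (-0.86). The difference between types for Ncam1 was 0.039 under quantile normalization, 0.030 with medians centred and 0.054 with its probe sets averaged, with exact permutation p of at least 0.94. Leaving out 1 array moved it from -0.16 to 0.069 for Ncam1 and from -0.30 to 0.0073 for Dlk1, so its sign is not settled. Groups share only sample numbers 1 and 2. Deviations of same-numbered arrays from their group means correlated across probe sets at 0.16 and -0.70 on U74Av2 and -0.02 and -0.62 on 430A. The deviations of the 2 minus arrays are equal and opposite, so the 2 correlations of a type are not separate checks of a pairing. With the number as a replicate block 1 probe set was called on U74Av2 and 0 on 430A, and no member.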
